A study of Drosophila melanogaster with 4 samples.

Results

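The 767 peaks called for the protein CG8478 on chromosome arm 3R of Drosophila melanogaster are described here. They were chosen as all entries of the deposited peak list that lie on 3R, and they make up 767 of 3284 peaks in the list and 26.1% of the 2938 peaks on the 6 chromosome arms X, 2L, 2R, 3L, 3R and 4. The list came from ChIP-seq of S2-DRSC cells, a male line of late embryonic origin, with 2 libraries precipitated with the rabbit polyclonal antibody KW3-CG8478-D1 and 2 libraries of input DNA from the same line. The labels name no treatment or genetic change. The list gives each peak a start, an end and a score but no value per library, so read depth is unknown, no value has a replicate error, and no difference below was tested. Positions are 1-based on FlyBase release 5. No genome sequence or gene annotation of that release was used, so no gene or sequence is given for a peak.

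In ChIP-seq, proteins are fixed to DNA with formaldehyde, the chromatin is sheared, and the pieces held by one protein are recovered with an antibody and sequenced. Stretches where reads pile up are then called as peaks. CG8478 is named here by its gene number. The antigen given in the labels carries the spacing of cysteines and histidines of a C2H2 zinc finger, a fold with which many fly proteins contact DNA. Arm 3R runs from the centromere of chromosome 3, at its low coordinates, to the telomere at its high coordinates. Euchromatin fills most of it, while repeat-rich heterochromatin lies towards the centromere, and arrays of telomeric retrotransposons cap fly chromosomes.

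Peaks of 3R ran from position 123 to position 27905038. They covered 444 kb, or 1.59% of that span of 27.9 Mb, at 27.5 peaks per Mb. The other arms, taken between their own first and last peaks, had 24.0 peaks per Mb and 1.39% covered, and single arms ranged from 17.1 peaks per Mb on 2L to 35.4 on 2R. The 3R density lay within that range.

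The score is the authors' own value for each peak, and it is used here only to rank and describe peaks within the list. On 3R the scores ran from 6.61 to 185, the median was 14.2 and the quartiles were 10.1 and 25.1. On the other arms the median was 13.8 and the quartiles were 10.3 and 22.9. Most 3R scores were therefore low beside the highest, since the upper quartile was 25.1 and the highest 185. Scores below 10 were held by 191 peaks, 24.9%, and scores of 50 or more by 63, 8.21%. Scores often took the same value, with 445 distinct values among the 767 peaks and 16 peaks at the most common value of 8.78. A score of at least 100 was reached by 20 peaks on 3R, 2.61% (Wilson 95% interval 1.69 to 3.99%), beside 2.52% of the peaks on all 6 arms. The interval covers counting error only, and the 3R share was near that background. The lowest of the 20 scored 104 and the next peak down scored 96.0.

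**Figure D1:**
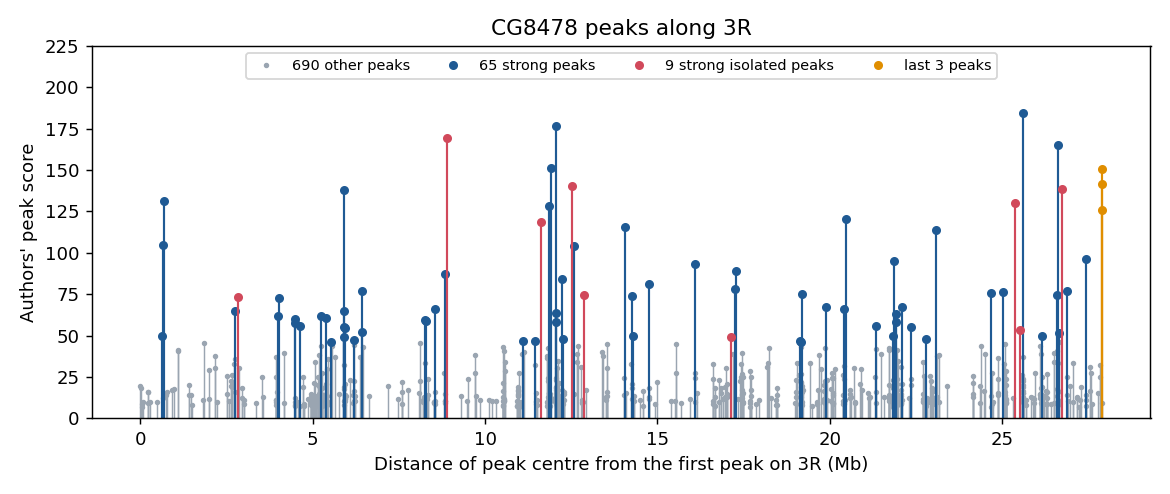
Authors' peak score (vertical axis) against the distance of each peak's centre from the first peak of 3R in Mb (horizontal axis), with 1 point per peak. The 77 strong peaks, scoring 45.9 or more, are spread along the arm, the 9 isolated ones stand apart from other peaks, and the last 3 peaks reach 126 to 150 at the end of the arm.

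The strongest peak of the arm spanned 25598297 to 25600783, scored 185 and was 2487 bp wide. It ranked 10 in the whole list, so none of the 9 highest scores of the list lay on 3R. The next 4 on the arm followed closely: the peak spanning 12054438 to 12057765 scored 177, 8889355 to 8890458 scored 169, 26625172 to 26626786 scored 165, and 11924824 to 11926321 scored 151. These 5 peaks lay in very different surroundings. Those at 25598297, 12054438 and 26625172 belonged to crowded groups of 15, 22 and 9 peaks. That at 8889355 had no other peak within 44.8 kb, and that at 11924824 had a close neighbour on one side, 439 bp away, and 104906 bp without peaks on the other.

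Strong peaks are taken below as the highest 10% of the scores on 3R, 77 peaks that scored 45.9 or more; the first peak outside scored 45.85. They were widely distributed, with none in 8 of the 27 whole 1 Mb windows of the arm and at most 8 in any of them. A neighbour within 1 kb was present for 37 of the 77 strong peaks, 48.1%, and for 352 of the 690 other peaks, 51.0%. A neighbour that close was thus about as common among strong peaks as among the others. The 45 peaks of lower score that lay within 1 kb of a strong one had a median score of 13.3 (quartiles 10.2 and 18.0). Their median width was 398 bp. Over all 3R peaks the medians were 14.2 and 414 bp, but those include the strong peaks, which the 45 leave out by definition. The medians of the 690 other peaks, the like set, were not computed. Neighbouring scores were also nearly unrelated in rank. Spearman's rho between the scores of adjacent peaks was 0.05 for the 250 pairs within 1 kb, 0.07 for the 230 pairs from 1 to 10 kb apart, and 0.09 for the 88 pairs more than 100 kb apart. These are descriptions across pairs that share peaks, from 1 peak list.

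Width and score rose together. In 4 bins of equal size and rising score on 3R, the median width was 255.5, 311, 558 and 872 bp, and Spearman's rho across the 767 peaks was 0.76, beside 0.75 on the other arms. Peaks near 1000 bp differed widely in score. The 45 peaks between 900 and 1100 bp wide had scores from 11.9 to 139 with a median of 30.6, and 15 of them were strong. At the narrow end, 23 peaks had the smallest width in the list, 201 bp. A width of at least 1000 bp was reached by 100 peaks, 13.0% of the 3R peaks (Wilson 95% interval 10.8 to 15.6%), beside 12.9% on all 6 arms. The threshold separated peaks of 1000 and 998 bp. The 100 wide peaks supplied 35.1% of the covered length, and 40 of them were strong, while 13 scored below 20.

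**Figure D2:**
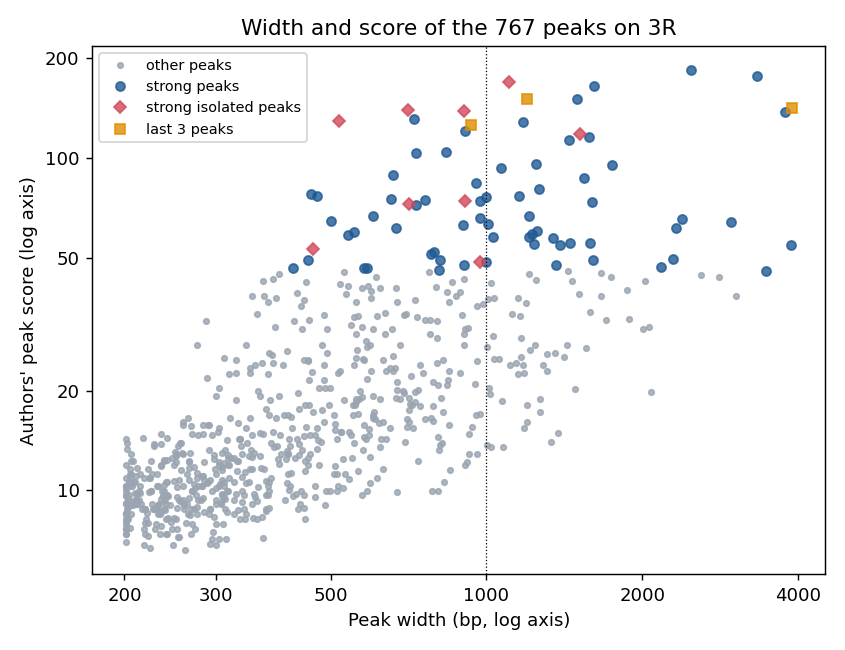
Width in bp (horizontal, log axis) and authors' score (vertical, log axis) of the 767 peaks on 3R, with 1 point per peak and a dotted line at 1000 bp. Wider peaks score higher, and the 9 strong isolated peaks lie between 463 and 1514 bp with a median of 906 bp, against 1111 bp for the other 68 strong peaks.

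Of the 10 widest peaks, 8 lay in groups of 5 or more peaks. The same held for 51 of the 100 peaks of at least 1000 bp and for 44.3% of all 3R peaks. With only 10 peaks the difference was not tested. The widest, 27898914 to 27902804, measured 3891 bp and scored 142 at the end of the arm. Next came 2 peaks of a single group, 5907337 to 5911213 with 3877 bp and a score of 55.0, and 5912458 to 5916226 with 3769 bp and a score of 138. Nearly equal widths thus went with very different scores. The peak at 19157982 to 19161445 was 3464 bp wide and scored 45.9, the lowest score still counted as strong. Below that cut, 5176245 to 5179279 (3035 bp) had 38.4, 26106105 to 26108909 (2805 bp) had 43.8, and 6208378 to 6210971 (2594 bp) had 44.5. The other 3 of the 10 were the peak at 12054438, the one at 5918210 to 5921170, 2961 bp wide with a score of 64.5, and the strongest peak of the arm.

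Peaks were unevenly spread along 3R. The 27 whole windows of 1 Mb held 27.6 ± 19.6 peaks (SD over windows), from 6 to 84, and the median window held 21. The 90 whole windows of the other arms held 23.6 ± 21.5, from 2 to 92. On 3R the 7 fullest windows held 386 of 745 peaks, 51.8% (Wilson 95% interval 48.2 to 55.4%), against shares from 50.9% on 2R to 66.6% on X. The share on 3R lay within the range of the other long arms. The 7 windows were picked as the fullest in the same list, and neighbouring peaks are not independent. The interval takes neither into account, so it does not measure the error of this share. Whole windows were taken, and the other long arms had 21 to 24 of them against 27 on 3R. The fraction of windows taken therefore differed between arms, and the shares are only roughly comparable.

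Windows above the mean formed 5 crowded segments and those below it 5 sparse ones. Segments cut in this way alternate and differ in density by definition. Some labels rest on small differences from the mean of 27.6. The window from 8 to 9 Mb, with 27 peaks, counts as sparse. The crowded segments were 5 to 6 Mb with 84 peaks, 10 to 13 Mb with 139, 17 to 18 Mb with 30, 19 to 23 Mb with 166, and 25 to 27 Mb with 95. Together these 11 windows held 514 peaks, 69.0% of those in whole windows. The 16 windows of the sparse segments held 231 peaks, or 14.4 per Mb against 46.7 in the crowded ones. The first 5 Mb, on the centromere side, were sparse at 16.8 peaks per Mb, yet this was the highest density among the 5 sparse segments. The lowest was 9 per Mb, from 18 to 19 Mb. Peaks listed outside the 6 arms are not counted here. The emptiest windows were 7 to 8 Mb and 15 to 16 Mb with 6 peaks each, 9 to 10 Mb with 7, 13 to 14 Mb with 8, and 18 to 19 Mb and 23 to 24 Mb with 9 each.

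Both kinds of segment held strong peaks in like proportion. Strong peaks made up 9.34% of the peaks in crowded segments and 10.8% in sparse ones, so that their density was 4.36 and 1.56 per Mb. The median score was 13.6 (quartiles 9.91 and 24.1) in crowded and 15.4 (10.9 and 28.3) in sparse segments, ranges that overlap over most of their length. Across the 27 windows, Spearman's rho of the number of peaks was -0.32 with the median score and 0.69 with the highest score. Both values are descriptions over windows of 1 list. The highest of many scores tends to exceed the highest of few, so the second value is tied to the count itself. It cannot tell whether crowded windows hold stronger sites.

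**Figure D3:**
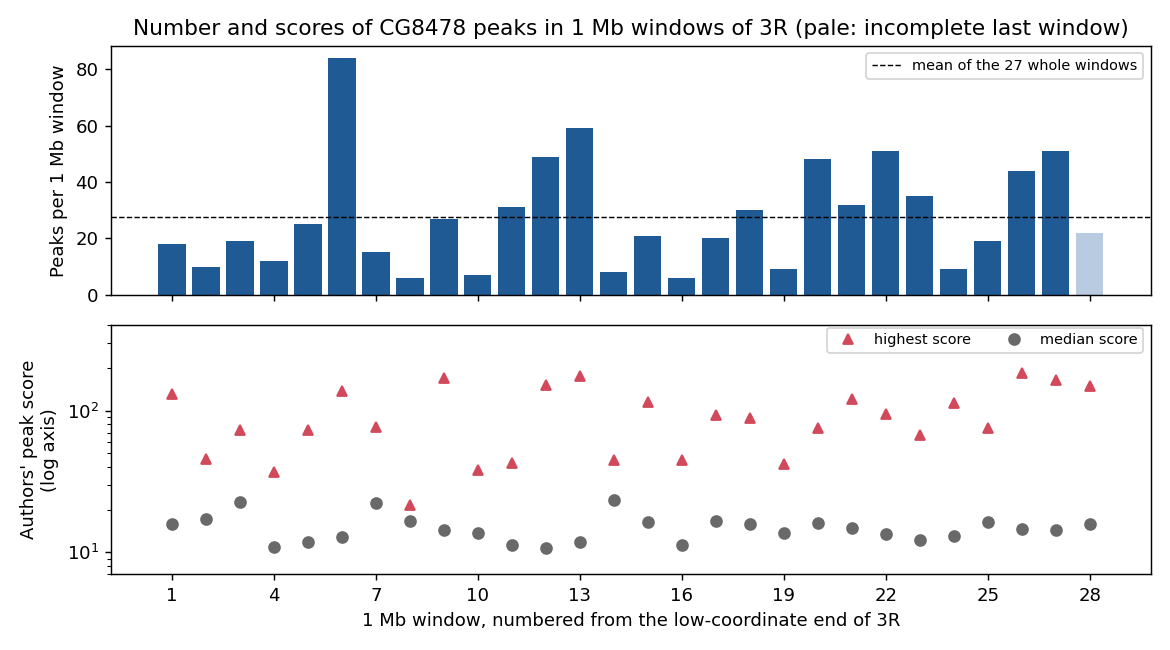
Number of peaks (upper panel) and the highest and median authors' score (lower panel, log axis) in each 1 Mb window of 3R, numbered from the low-coordinate end; the pale bar is the incomplete last window and the dashed line the mean of 27.6. Window 6, from 5 to 6 Mb, holds 84 peaks, while windows 8 and 16 hold 6 each.

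Windows without a peak were common at a finer scale. Of 279 windows of 100 kb, 102 held no peak, 36.6%, and 17 windows with at least 10 peaks each held 278 peaks, 36.4% of the peaks counted in these windows. The longest stretch without a peak ran for 745 kb between 23406213 to 23407229 (score 19.6) and 24152182 to 24153107 (score 14.8). Others followed of 548 kb between 6631177 to 6631378 (score 13.3) and 7179228 to 7179593 (score 19.2), and of 540 kb between 18461214 to 18461448 (score 7.80) and 19001074 to 19001314 (score 9.09). Next came 479 kb between 13542554 to 13543761 (score 45.0) and 14022742 to 14023109 (score 24.2), and 468 kb between 16135208 to 16135512 (score 15.4) and 16603914 to 16604673 (score 32.6). None of these 10 bordering peaks was strong, beside 10.0% of all 3R peaks, and 10 peaks are too few to tell these shares apart. Stretches longer than 100 kb made up 88 of the 766 distances between neighbours, 11.5%, beside 12.7% on the other arms.

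Neighbours separated by no more than 10 kb were put into one group, and groups with at least 5 members are called large clusters. On 3R there were 34 large clusters with 340 peaks, 44.3% of the arm's peaks (Wilson 95% interval 40.8 to 47.9%), beside 49.3% on all 6 arms. On the 5 arms other than 3R the share was 51.1% (49.0 to 53.2%), an interval that does not overlap that of 3R, and the difference was not tested. The 34 clusters occupied 778 kb, 2.79% of the span. A further 105 groups of 2 to 4 peaks held 279 peaks, and 148 peaks, 19.3%, had no other peak within 10 kb, beside 19.8% on all 6 arms. The 3R share in large clusters was lower than on X (57.5%) and higher than on 2L (39.9%). Peaks of 1 cluster are not independent, which the intervals do not take into account.

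**Figure D4:**
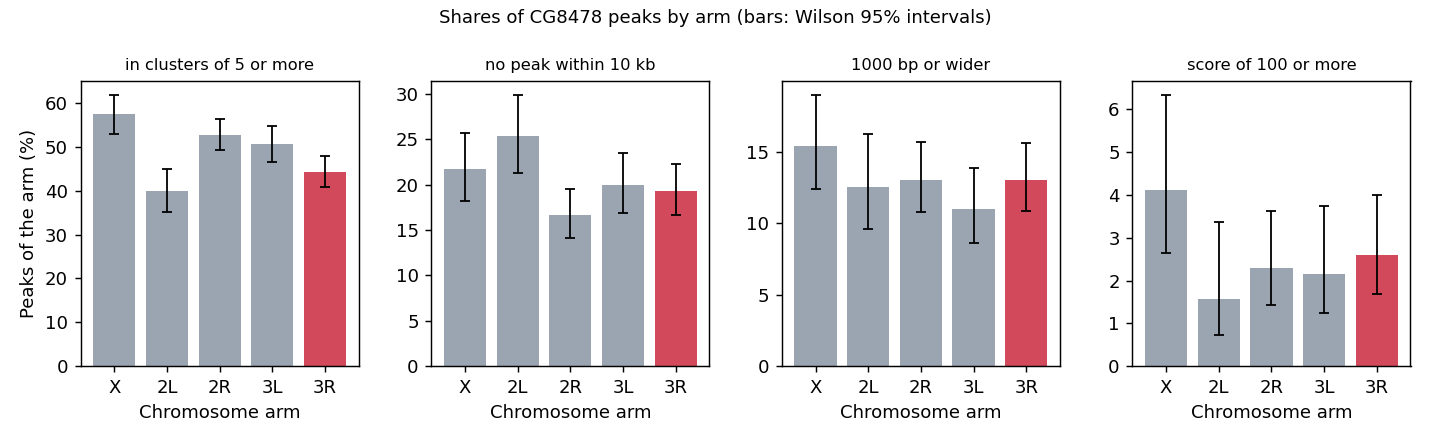
Percentage of each arm's peaks (vertical axes) that lie in clusters of 5 or more, have no other peak within 10 kb, are 1000 bp or wider, or score 100 or more, for X, 2L, 2R, 3L and 3R (chromosome 4, with 27 peaks, is left out); error bars are Wilson 95% intervals and cover counting error only. For 3R the shares are 44.3%, 19.3%, 13.0% and 2.61%, each within the range of the other 4 arms.

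Clusters differed in whether one peak stood out. In 16 of the 34 clusters at least 1 peak was strong, in 10 of them exactly 1, and the other 18 had none. The highest score of a cluster was between 1.26 and 14.1 times its median score, with a median ratio of 3.37, and in 17 of 34 clusters the highest-scoring peak was also the widest. The largest cluster, 11798805 to 11877526, held 31 peaks in 78.7 kb. Its median score was 10.6, and a single strong peak, 11850994 to 11852168 with a score of 128, rose 12.1 times above it. The second, 12031228 to 12086790, held 22 peaks in 55.6 kb around the peak at 12054438, whose score of 177 was 14.1 times the median of 12.6, and 2 more of its peaks were strong.

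Other large clusters had lower highest scores. The cluster from 21924819 to 21963612 held 21 peaks with a median score of 12.2, and its highest score of 63.0, at 21928697 to 21929596, was 5.15 times that median. That from 5154629 to 5184731 held 18 peaks, with a highest score of 38.4 at its widest peak, 5176245 to 5179279, 3.35 times the median. An extreme case was 5216530 to 5225766, where 8 peaks covered 42.7% of 9.24 kb with scores from 8.22 to 12.9 only, the highest being 1.26 times the median. The densest, 25079900 to 25085383, was covered for 73.6% of its 5.48 kb by 7 peaks, of which the highest scored 45.1, 3.49 times the median. These last 2 clusters were picked for their values after these had been seen.

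In the cluster from 5902398 to 5939555 many peaks were both wide and strong. Its 17 peaks covered 54.5% of 37.2 kb, the median score was 17.5, and 5 peaks were strong, the most in any large cluster of the arm. They scored 48.8, 55.0, 138, 64.5 and 54.7 in order of position. The cluster from 25575090 to 25612461, with 15 peaks in 37.4 kb, was of the opposite kind. Its strongest peak, the highest of the arm, scored 185, and the next in the cluster scored 36.9, at 25597257 to 25598102. Only the former was strong.

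Some large clusters lay close to one another. With large clusters at most 100 kb apart joined, a choice made after the positions had been seen, 5 clusters with 53 peaks fell between 5154629 and 5423529, 4 clusters and 1 further peak, 43 peaks in all, between 12031228 and 12258991, and 3 clusters and 1 further peak, 40 in all, between 21828617 and 22062992. The first stretch had 2 strong peaks and a highest score of 61.8. The second had 5, with a highest score of 177, and the third had 4, with a highest score of 95.3 at 21867434 to 21869183, the 1 peak of that stretch outside its clusters. With the cluster from 5902398 to 5939555, the first stretch accounted for 70 of the 84 peaks in the fullest window. The strongest peak of that window was the one at 5912458, and those of the next fullest were the peak at 12054438 for 12 to 13 Mb (59 peaks), at 21867434 for 21 to 22 Mb (51 peaks), at 26625172 for 26 to 27 Mb (51 peaks) and at 11924824 for 11 to 12 Mb (49 peaks).

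**Figure D5:**
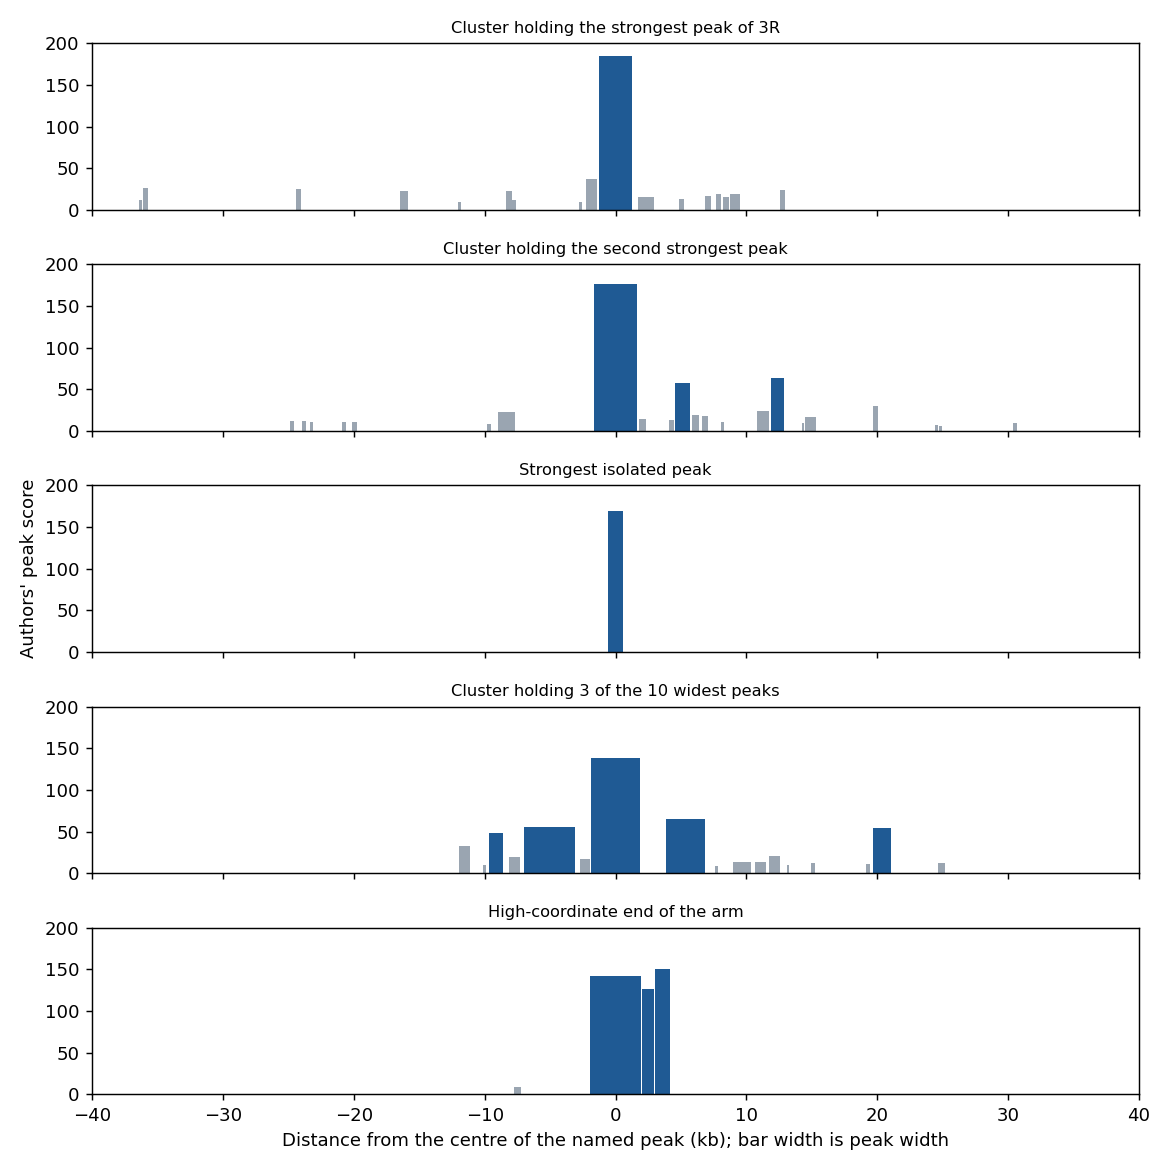
Authors' score (vertical axes) of all peaks within 40 kb of 5 named peaks, against the distance from the centre of the named peak in kb; bar width is peak width, and blue bars are peaks scoring 45.9 or more. The strongest peak of 3R stands at 185 among peaks of at most 36.9, the strongest isolated peak stands alone, and the last 3 peaks of the arm form a block with scores of 126 to 150.

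Strong sites stood alone about as seldom as other peaks. A neighbour within 20 kb was present for 88.3% of the 77 strong peaks and 86.2% of the 690 others. A score of 45.9 or more with no other peak within 20 kb was found for 9 peaks on 3R, 1.17% (Wilson 95% interval 0.619 to 2.21%), beside 2.11% of the peaks on all 6 arms and 2.44% (1.87 to 3.18%) on the 5 arms other than 3R. The intervals of 3R and of the other arms overlap, and the difference was not tested. The strongest, 8889355 to 8890458, scored 169 over 1104 bp and had 44.8 kb free of peaks on its low side and 401 kb on its high side. The peak at 12528419 to 12529122 scored 140 over 704 bp, with 249 kb and 58.7 kb free. That at 26737833 to 26738738 scored 139 over 906 bp, with 99.8 kb and 146 kb free.

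The narrowest peak of the arm to score at least 100 was also an isolated one, 25381691 to 25382210, with a score of 130 over 520 bp. The next peak on its high side, 25516812 to 25517274, was isolated as well, scored 53.4 over 463 bp and lay 135 kb away. Among the other 4, the peak at 11619014 to 11620527 scored 119 over 1514 bp and that at 12881741 to 12882649 scored 74.3 over 909 bp. Lower still were 2826242 to 2826950, with 73.1 over 709 bp, and 17121673 to 17122643, with 48.9 over 971 bp. The peak at 11619014 had more than 100 kb free on both sides, 114 and 165 kb. Only 15 peaks of the arm had as much, and their median score was 11.9.

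Isolated strong peaks had a lower median width and a higher median score than the other strong peaks, without a test of either difference. The 9 had a median width of 906 bp (463 to 1514 bp) and a median score of 119 (48.9 to 169). The other 68 strong peaks had a median width of 1111 bp (424 to 3891 bp) and a median score of 66.0 (45.9 to 185). The widths and scores of the 9 all lay within the ranges of the 68. A width of at least 1000 bp was found for 2 of the 9 and 38 of the 68.

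Of the 25 highest scores on 3R, several had few neighbours without meeting the rule for isolation. The peaks 660719 to 661554 (score 105) and 677933 to 678656 (score 132) were 16378 bp apart and had no other peak within 10 kb. They stood out in the sparse first Mb, where the median score of 18 peaks was 15.9. The peak at 20455516 to 20456425 (score 121) had its nearest neighbour at 3694 bp, and that at 12589408 to 12590138 (score 104) at 1362 bp. Also outside large clusters lay 14069418 to 14070997 with a score of 116 and 23070194 to 23071636 with 114. The same held for 16086877 to 16087945 with 93.2 and 17271891 to 17272551 with 89.0. The last of the 25, at 8837684 to 8839224, scored 87.0 within a cluster of 5 peaks whose median score was 10.3. In all, 6 of the 25 lay in large clusters. Of the 20 peaks scoring at least 100, 5 lay in large clusters, 8 in groups of 2 to 4 and 7 had no other peak within 10 kb. Over all 3R peaks these 3 classes held 44.3%, 36.4% and 19.3%. The difference was not tested.

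Over all 3R peaks, the medians of score fell from lone to crowded peaks. The median score was 16.9 (quartiles 11.4 and 33.5) for the 148 peaks without another within 10 kb, 15.0 (10.3 and 27.4) for the 279 peaks in groups of 2 to 4 and 12.7 (9.65 and 20.8) for the 340 in large clusters. Strong peaks made up 12.2%, 11.8% and 7.65% of the 3 classes. Wide peaks ran the other way, with 7.43%, 13.6% and 15.0% reaching 1000 bp. No test of these differences was made.

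Neighbouring peaks that were both wide, at least 1000 bp each with at most 10 kb between them, formed 9 pairs with 18 peaks, 2.35% of the arm's peaks (Wilson 95% interval 1.49 to 3.68%), beside 2.93% on all 6 arms. Of the 9 pairs, 7 lay in large clusters, beside 51 of the 100 wide peaks. By definition a pair is already part of a group of at least 2. In 8 of the 9 the wider peak had the higher score. Width and score rose together over all 3R peaks, with a rho of 0.76, so neither count sets the pairs apart. The gaps within pairs ran from 147 to 6048 bp, and 5 were shorter than 600 bp, and whether the caller split single wide stretches into pairs was not tested. The pair of highest summed score was 5912458 to 5916226 and 5918210 to 5921170, with scores of 138 and 64.5 and 1983 bp between them.

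Members of a pair could be very unequal. The strongest peak of the arm, with a score of 185, was paired with 25601271 to 25602450, which scored 15.4 at a distance of 487 bp, a ratio of 12.0. The peak at 12054438, with 177, was paired with 12047079 to 12048389, which scored 22.9, 6048 bp away. By contrast 6208378 to 6210971 and 6211448 to 6213617, 476 bp apart, scored 44.5 and 47.1, and here alone the narrower peak scored higher. The pair 22360201 to 22361375 and 22361920 to 22363152 scored 23.8 and 55.2, and 26160709 to 26162998 and 26163472 to 26164503 scored 49.8 and 24.9. These 2 pairs had gaps of 544 and 473 bp.

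The high-coordinate end of 3R, towards the telomere, held a compact block of strong peaks. The peak at 27898914 to 27902804 scored 142 over 3891 bp, 27902856 to 27903789 scored 126 over 934 bp, and 27903840 to 27905038, the last of the arm, scored 150 over 1199 bp. The gaps between them were 51 and 50 bp, the latter the shortest on the arm together with 1 other gap, and together they covered 98.4% of 6125 bp. They ranked 7, 14 and 6 on 3R. Because the middle one was narrower than 1000 bp, the block did not enter the count of wide pairs.

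The block was sharply bounded on its low side. The nearest peak, 27893109 to 27893596, lay 5317 bp away and scored 9.06. The next, at 27830751 to 27831175 with a score of 32.3 and at 27823818 to 27824269 with 24.7, were separated from it by 61933 bp or more. Before these came 27781412 to 27782133 with a score of 15.4, 27603654 to 27603946 with 8.78, 27573652 to 27574555 with 27.4 and 27550546 to 27552608 with 31.1. The last 100 kb up to the final peak thus held 6 peaks, 3 of which scored above 100. Over the last Mb, the 21 peaks other than the block had a median score of 14.3, near that of the arm, and 1 strong member, 27433759 to 27435002 with 96.0.

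The ends of the other arms are set beside this block for comparison. In the last 10 kb up to the final peak, 3 peaks with a lowest score of 126 covered 60.2% on 3R. On 2R the corresponding stretch held 2 peaks, 1 of which scored 101, and on X, 2L, 3L and 4 no peak there reached 100, with highest scores of 16.6, 34.2, 25.2 and 9.64. For X, 2L and 3L these high coordinates face the centromere, so that their telomeric ends are the low coordinates. All these stretches are counted from the outermost peak of an arm and not from the chromosome end. On X the first peak began at 328072, well inside the arm, and the 10 kb from there held 1 peak. It scored 11.2 and covered 3.88%, and it does not describe the telomeric end itself. On 2L, from a first peak at 137, the first 10 kb held 2 peaks with scores up to 60.0, which covered 58.9%. On 3L, from 673, the first 10 kb held 10 peaks with scores up to 22.1, which covered 71.2%. The covered share at the end of 3R thus lay between those of 2L and 3L, while its scores were higher. The last 10 kb up to the final peak were covered for 11.3% on 2R and 2.07% on 4. How far those final peaks lay from the chromosome ends was not measured. Each arm has a single telomeric end and the list gives no replicate, so the difference was not tested.

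The low-coordinate end of 3R, towards the centromere, held only scores below the arm's upper quartile of 25.1 in its first 500 kb. The first peak, 123 to 727, scored 19.2, and after it 12612 to 13339 scored 18.4, 60786 to 61009 scored 6.69, 61568 to 61947 scored 8.88 and 91836 to 92274 scored 9.99. In the first 500 kb there were 10 peaks with scores from 6.69 to 19.2, none wider than 728 bp. None of them was strong. The first strong peak of the arm, 628971 to 629422, scored 49.4, and the next strong ones were those with 105 and 132 given above.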

How the data were processed

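The series holds 2 ChIP and 2 input libraries, grouped and numbered by their titles. Fixation used 1.8% formaldehyde (15 minutes) before sonication, per the labels' protocols. The deposited score of each peak is the authors' own, while its statistic, the calling threshold, the use of the input and any pooling of replicates were not stated in these sources. Per the file headers, positions are on FlyBase release 5 and the source column names MACS. The submitters' processing notes name, with no role, MACS2, BWA, the build BDGP5 and CASAVA in versions 1.7.0.2 and 1.7.0.3. How a caller splits enrichment changes the number, width and spacing of peaks.

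From this list, gaps, windows by peak midpoint, chains and pairs were computed with pandas 2.3.3, scipy 1.17.1 and numpy 2.4.6 under Python 3.11.15, figures were drawn with matplotlib 3.10.9, and the counting functions were tested on simulated data. Intervals are Wilson 95% intervals. The members, thresholds and the rule for named peaks (the 25 highest scores, the 10 widest, strong isolated peaks, the 6 wide pairs of highest summed score, the first 5 and last 10 peaks, the strongest peaks of the 6 largest clusters and 5 fullest windows, and peaks bordering the 5 longest gaps) were chosen with earlier results of these data known. Alternatives were a higher score threshold, merging of near peaks, and other window, gap, isolation and width limits. The gene table given is of another build and was not used.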

Additional observations from a re-analysis of the deposited data

How the results depend on the processing

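With the list restricted to its upper part by score, 381 peaks remained on 3R by construction, their median spacing was 17147.5 bp instead of 4282.25 bp, and the fullest 25% of windows held 48.0% instead of 51.8%. Merging peaks within 200 bp raised the median spacing to 6745.5 bp and the median width from 414 to 463 bp, and lowered the share in large clusters from 44.3% to 40.1%, since fewer and wider peaks result. That share was 33.1% with gaps of at most 5 kb and 54.6% with 20 kb. Windows of 500 kb put 56.5% in the fullest 25%. There were 18 strong isolated peaks in place of 9 with 10 kb free of other peaks. Wide pairs numbered 29 in place of 9 with a width of 800 bp and 2 with 1500 bp. How far these 12 moves follow from the limits alone was not tested. The other 11 of 23 alternatives run stayed within 1.5 times a count or within the 95% interval of a share or median. Some counts lay near or at that limit. Merging peaks within 1000 bp left 517 peaks in place of 767. With 50 kb free of other peaks, 6 strong isolated peaks remained in place of 9. The last 50 kb held 4 peaks, against 6 in the last 100 kb. No 2 peaks overlapped, so merging overlaps of 1 bp left the list as it was. No paired analysis was possible because peaks have 1 score each and none per library. Leaving out replicates was not possible either, and the limits set by depth are unknown.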
